A study of Mus musculus with 4 samples.

Results

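Heat shock proteins and their cochaperones were examined in immature granulocytes sorted from mouse bone marrow, in cells without the microRNA miR-223 and in wild type cells. The members were every gene on the array whose deposited name began with Hspa, Hspb, Hspd1, Hspe1, Hsph1, Hsp90, Dnaja, Dnajb or Dnajc, or with Cct and a digit, together with Bag1 to Bag5, Hsf1, Hsf2, Tcp1, Stip1 and Ahsa1. By this rule 93 names were found, carried by 172 of the 41174 probes on the array. The prefix also took in Hspbp1 and Hspbap1, which are not small heat shock proteins and were placed with the cochaperones. Of the 93 members, 81 had a probe that stood well above its background on 2 or more of the 4 arrays and were measured, among 16978 genes in all. The other 12 had no measured difference. Hspa12b, Hspa1l, Dnaja4 and Dnajc5g were well above background on 1 KO array and on no WT array, and Cct8l1, Hspb2, Hspb3, Hspb8, Dnajb13, Dnajb3, Dnajb7 and Dnajc5b were so on no array.

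All mice were male C57BL/6. The miR-223 KO group had 2 samples and the wild type (WT) group had 2, each hybridised alone to a single-colour Agilent whole-genome array. The labels give no age, no sorting gate and no statement of how the KO allele was made or whether a sample was 1 animal or a pool, so a p-value here takes in only the spread among 4 hybridised samples, part or all of which may be technical. All 4 arrays had 1 scan time in the file headers, and whether they shared a slide was not read from any other field.

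Chaperones bind unfolded or partly folded proteins and let them fold. The HSP70 proteins (Hspa genes) do so in cycles of ATP hydrolysis, which J proteins (Dnaja, Dnajb and Dnajc genes) start and nucleotide exchange factors such as the Bag proteins and Hsph1 end, while HSP90 finishes the folding of kinases and receptors. Heat and other protein damage free the transcription factor HSF1, which then binds heat shock elements in the promoters of the inducible cytosolic members. Chaperones of the endoplasmic reticulum (ER) are induced instead by the unfolded protein response, and those of mitochondria fold imported proteins. Granulocyte precursors make large amounts of granule protein in the ER. miR-223 is abundant in granulocytes and their precursors, and a microRNA pairs with its target transcripts mainly through its seed.

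The mature sequence of the deleted microRNA is shown with its seed, bases 2 to 8, in capitals. It lies on the plus strand at chrX:96242884-96242905 of GRCm38.p6, per RefSeq.
miR-223-3p: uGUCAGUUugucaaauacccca
The array held 0 probes named for Mir223, so the deletion itself could not be read from it. The 7-base complement of the seed was present in 0 of the 172 member probes and in 153 of all 41174 probes, and these 60-base probes cover only a small part of each transcript.

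RefSeq promoter windows of GRCm38.p6, 250 bases before to 50 bases after a gene's start, were found for 76 of the 93 members and for 27025 genes in all. A heat shock element of 2 units was searched on both strands as GAANNTTC or TTCNNGAA, and one of 3 units as GAA, TTC and GAA spaced by NN; every 3-unit match also holds 2-unit matches. The stretches below hold such elements, in capitals, and are printed because their genes had large differences between the genotypes or carried the 3-unit form. The Hspa1a stretch is at chr17:34972243-34972270 and the Hspa1b stretch at chr17:34959325-34959352, both on the minus strand, from base -114 to base -87 of the start site. The Dnajb6 stretch is at chr5:29735842-29735874 on the plus strand. The Hspe1 stretch is at chr1:55088049-55088086 on the plus strand.
Hspa1a: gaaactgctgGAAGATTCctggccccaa
Hspa1b: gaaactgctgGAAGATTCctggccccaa
Dnajb6: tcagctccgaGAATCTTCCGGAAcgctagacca
Hspe1: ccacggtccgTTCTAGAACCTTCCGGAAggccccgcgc
Hspa1a and Hspa1b had the same stretch at the same distance, and their 300-base windows were identical at 296 positions (98.7%). The 18 capital bases of Hspe1 lie between 2 genes that are read in opposite directions: chr1:55088059-55088076 is 89 to 72 bases before the start of Hspe1 and 144 to 127 bases before the start of Hspd1, on the other strand. A 2-unit element was found in 21 of 76 members (27.6%), against 17.0% of all 27025 genes, and in 7 of 8 inducible cytosolic members with a window and 0 of 7 constitutive ones. The 3-unit form was found in 4 members, Hspd1, Hspe1, Hsph1 and Dnajb6 (5.26%), against 0.662% of all genes. In Hsph1 it lies after the start site and is not printed. A match describes these letters and does not show that a factor binds there.

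The ER stress response element, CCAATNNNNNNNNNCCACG on either strand, was found in 3 of 11 ER members, in 0 other members and in 37 of all 27025 genes (0.137%). The 3 are Hspa5, Hsp90b1 and Dnajc3. The stretches of Hspa5, at chr2:34772015-34772053 on the plus strand, and of Hsp90b1, at chr10:86705523-86705666 on the minus strand, are shown with the element in capitals; Hsp90b1 has 2 of them, the second on the opposite strand.
Hspa5: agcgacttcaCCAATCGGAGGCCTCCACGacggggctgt
Hsp90b1: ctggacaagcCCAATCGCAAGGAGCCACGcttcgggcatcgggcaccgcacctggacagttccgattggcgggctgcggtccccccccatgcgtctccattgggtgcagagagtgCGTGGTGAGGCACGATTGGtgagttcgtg

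Values are given as log2 of the processed signal relative to the 75th percentile of the same array, so 0 is the 75th percentile and a difference of 1 is a 2-fold difference. Differences are KO minus WT with the standard error of the limma fit (2 arrays in each genotype). The 75th percentile of the signal was 361 and 422 on the KO arrays, against 314 and 310 on the WT arrays. Between 59.6% and 62.9% of spots were well above background, and 0 spots were saturated. The number of arrays limits the precision: an exact permutation test of 2 against 2 cannot give a two-sided p below 0.333. Of all 16978 genes, limma called 0 (0%) at an adjusted p under 0.05. The lowest adjusted p was 0.0838. By unadjusted p under 0.05, 2007 genes (11.8%) were higher and 2036 (12%) lower in KO. With a prior variance that follows the signal intensity, limma called 926 genes (5.45%) higher and 701 (4.13%) lower. That setting is quoted below as the intensity trend. Another background correction, normexp fitted to all spots including controls, is quoted beside several members whose direction it turned.

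Members leaned towards higher values in the KO samples. Of the 81 measured, 57 (70.4%) were higher and 24 lower, where 47.6% of all genes were higher and 52.4% lower. The median difference was 0.13, where the median of all genes was -0.017. Both KO arrays lay above both WT arrays in 42 members (51.9%), which happened in 28% of all genes, and below both in 13 (16.0%), against 30.5% of all genes. At an unadjusted p under 0.05, 17 members (21.0%) were higher and 1 (1.23%) lower, against 11.8% and 12% of all genes. None of the 81 passed at an adjusted p under 0.05. With the intensity trend 10 (12.3%) passed as higher and 1 as lower, against 5.45% and 4.13% of all genes. A difference of at least 2-fold upwards was reached by Hspa1a and Hspa1b among the members and by 1.4% of all genes. One downwards was reached by 0 members and 1.1% of all genes. The probes of Hspa1b are annotated to Hspa1a as well, so Hspa1b may not be a separate reading. In RNA from a sorted population, fewer cells of a type and less RNA per cell cannot be told apart.

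**Figure D1:**
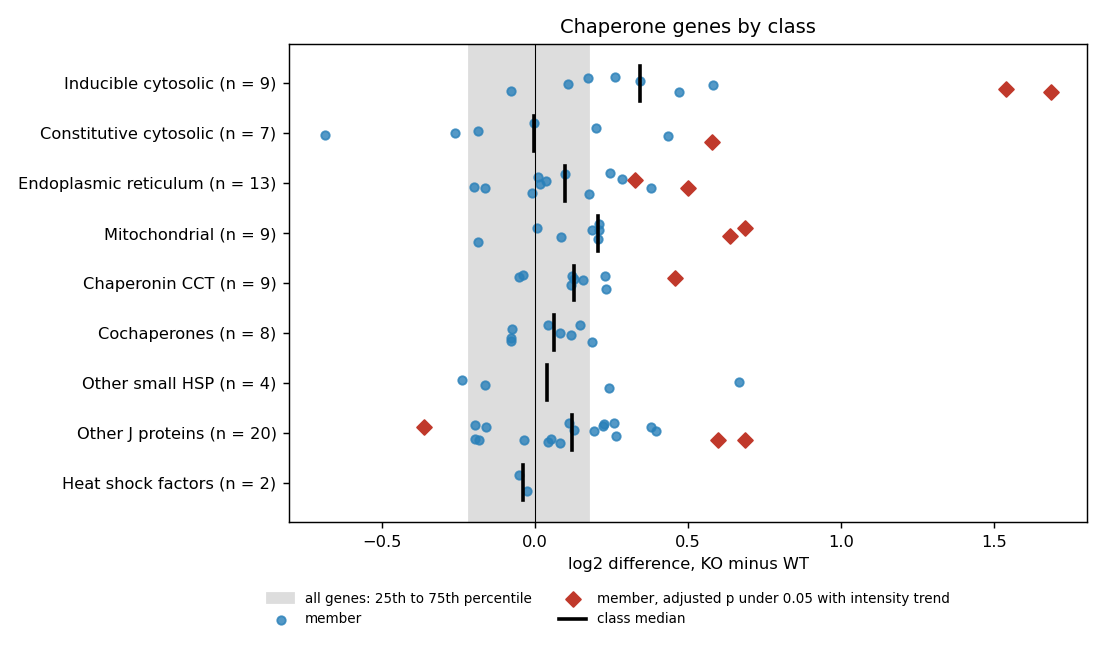
Log2 difference (KO minus WT) of each of the 81 measured members, by class, with the class median as a black bar and the 25th to 75th percentile of all genes in grey. Red diamonds are the 11 members with an adjusted p under 0.05 with the intensity trend; Hspa1a and Hspa1b stand alone at 1.69 and 1.54, and Dnajc9 is the one diamond below 0.

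The inducible cytosolic class, the genes that HSF1 drives in heat shock, had a median difference of 0.34. All 9 members were measured and 8 were higher in KO. The class was uneven: Hspa1a and Hspa1b stood at 3.22-fold and 2.91-fold, and the other 7 members lay between -0.08 and 0.58. Both KO arrays were above both WT arrays in 5 members, against 28% of all genes, and below both in 0, against 30.5%.

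Hspa1a encodes an inducible cytosolic HSP70. Its brightest probe, at chr17:35106766-35106825 of mm9, read 4.11 and 4.08 on the KO arrays, against 2.45 and 2.37 on the WT arrays. The arrays of each genotype lay close together and far from those of the other. The difference was 1.69 ± 0.08 (limma adjusted p = 0.0838, and 0.00283 with the intensity trend), and its second probe gave 1.74.

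Hspa1b is the neighbouring paralog and encodes a nearly identical protein. Its brightest probe, at chr17:35094200-35094259 of mm9, read 1.73 and 1.87 on the KO arrays, against 0.34 and 0.18 on the WT arrays. The difference was 1.54 ± 0.11 (limma adjusted p = 0.0838, and 0.00356 with the intensity trend), and the second probe, at chr17:35095608-35095667, gave 1.86. Both probes of Hspa1b are annotated in the files to transcripts of Hspa1a as well, so the paralogs cannot be told apart by them, while the Hspa1a probes list Hspa1a only. The probe sequences are shown for that reason, without capitals because the files mark no base that separates the copies.
Hspa1b probe 1: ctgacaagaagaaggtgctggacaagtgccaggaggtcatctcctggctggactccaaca
Hspa1b probe 2: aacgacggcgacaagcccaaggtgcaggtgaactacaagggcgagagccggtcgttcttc

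The other inducible members had smaller differences or wide spread. Dnaja1, a J protein that works with cytosolic HSP70, read 3.58 and 3.47 on the KO arrays, against 3.22 and 3.30 on the WT arrays, a difference of 0.26 ± 0.09 that limma did not call (adjusted p = 0.207). Bag3, which couples HSP70 to autophagy, read 0.46 and 0.12 in KO, against -0.12 and 0.0024 in WT, and differed by 0.34 ± 0.15 (limma adjusted p = 0.269). For both genes the KO arrays lay above the WT arrays without overlap.

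In 2 further members 1 array carried the difference or the spread. Hsph1, the HSP110 that exchanges nucleotide on HSP70, read 2.33 and 1.57 in KO, against 1.44 and 1.51 in WT, so KO replicate 1 stood apart while KO replicate 2 lay close to both WT arrays. The difference was 0.47 ± 0.28 (limma adjusted p = 0.382). Hspb1, the small heat shock protein known as HSP25 in mice, was dim, at -3.84 and -4.37 in KO, against -5.20 and -4.18 in WT. These groups overlapped, and the difference of 0.58 ± 0.42 had a limma adjusted p of 0.456 and was -1.01 with normexp on all spots.

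Not every heat shock gene was higher. Dnajb1, the main J protein induced by heat, read 4.96 and 4.95 in KO, against 5.11 and 4.95 in WT, a difference of -0.08 ± 0.10 (limma adjusted p = 0.649) that was 0.0035 with each array's median subtracted in place of its 75th percentile. Its second probe differed by 0.12. Hsp90aa1, the stress-inducible cytosolic HSP90, differed by 0.11 ± 0.11 (limma adjusted p = 0.576) and Dnajb4, another J protein, by 0.17 ± 0.23 (limma adjusted p = 0.679), or -0.034 without KO replicate 1 and -0.044 without WT replicate 2. The class median was 0.17 without KO replicate 1 and 0.51 without KO replicate 2.

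**Figure D2:**
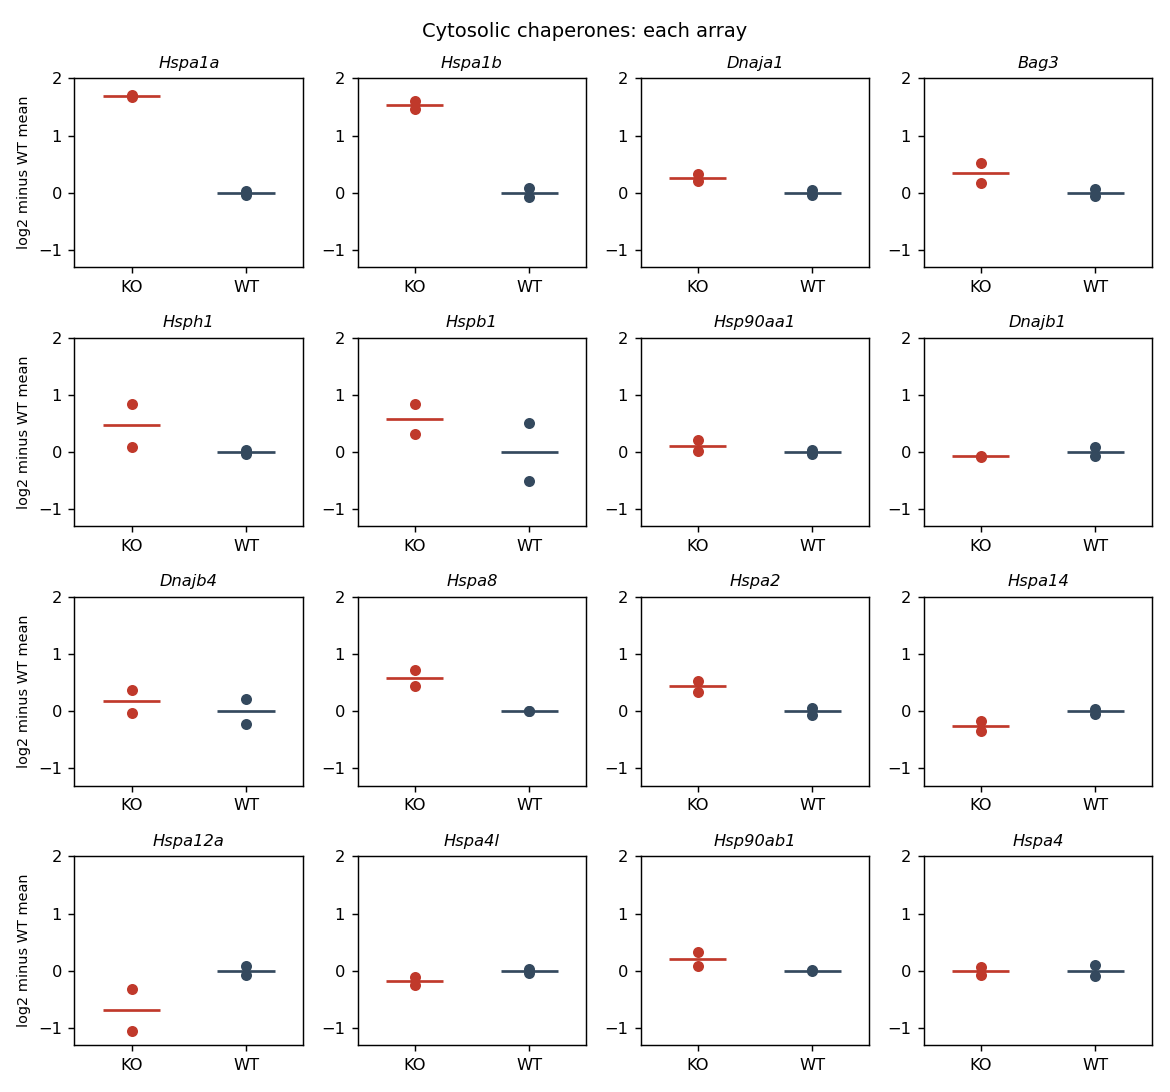
Log2 value of each array minus the WT mean of the same gene, for the 9 inducible (Hspa1a to Dnajb4) and 7 constitutive (Hspa8 to Hspa4) cytosolic members; points are arrays, bars are means of 2, KO left of WT. The KO and WT points of Hspa1a, Hspa1b and Hspa8 lie far apart, while Hsph1, Hspb1 and Hspa12a are spread within a genotype.

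The 2 heat shock factors themselves differed by less than the spread between arrays. Hsf1, the main activator, read 5.11 and 4.61 in KO, against 4.80 and 5.02 in WT, so the KO values enclosed the WT values (difference -0.05 ± 0.21, limma adjusted p = 0.898). Hsf2 was dim, above background on both KO arrays and 1 WT array, at -4.37 and -5.26 in KO, against -4.46 and -5.12 in WT (-0.02 ± 0.41, limma adjusted p = 0.977). Transcript levels do not report the activity of these factors, which is set on the protein.

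The constitutive cytosolic class was mixed. Of its 9 members 7 were measured, 3 higher and 4 lower, and the class median was -0.0040. That median turned sign with single arrays, from -0.096 without WT replicate 2 to 0.088 without WT replicate 1. In 3 members both KO arrays lay above both WT arrays and in 3 below both, against 28% and 30.5% of all genes. Hspa8, the constitutive HSC70 that helps newly made proteins to fold, read 6.70 and 6.43 in KO, against 5.98 and 5.98 in WT, with no overlap. The difference of 0.58 ± 0.12 passed with the intensity trend (adjusted p = 0.0245) and not without it (limma adjusted p = 0.119); its other probe gave 0.39. Hspa2, an HSP70 best known from the testis, was higher by 0.44 ± 0.11 (limma adjusted p = 0.139).

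Other constitutive members lay on the opposite side. Hspa14, an HSP70 bound to ribosomes, read 4.81 and 4.64 in KO, against 4.94 and 5.03 in WT, a difference of -0.26 ± 0.10 (limma adjusted p = 0.242) that was 0.22 with normexp on all spots. Hspa12a, a distant HSP70 relative, was at -3.37 and -4.11 in KO, against -3.14 and -2.98 in WT (-0.68 ± 0.28, limma adjusted p = 0.251). In both the KO arrays lay below the WT arrays. Hsp90ab1, the constitutive HSP90, differed by 0.20 ± 0.12. Hspa4l, an HSP110, differed by -0.19 ± 0.10 on its brightest probe, and its 4 probes ran from -0.19 to 0.29. Hspa4, another HSP110, had probes from -0.39 to 0.22 and so no single direction.

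In the ER class all 13 members were measured, 10 were higher in KO and the median was 0.10. Values on both KO arrays lay above both WT arrays in 8 members and below both in 1, against 28% and 30.5% of all genes. Hspa5 and Hsp90b1, chaperones of the ER lumen, were on the high side. Hspa5, the ER HSP70 known as BiP, read 6.01 and 6.01 in KO, against 5.64 and 5.73 in WT, a difference of 0.33 ± 0.08 (limma adjusted p = 0.139, and 0.0351 with the intensity trend). Hsp90b1, the ER HSP90 known as GRP94, read 6.19 and 5.95 in KO, against 5.66 and 5.72 in WT, and differed by 0.38 ± 0.12 (limma adjusted p = 0.177, and 0.0559 with the intensity trend). These are the promoters printed above with the ER stress response element.

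Dnajc3, the third gene with that element and a J protein that helps BiP, differed by only 0.01 ± 0.08. Dnajc18, a J protein of the ER membrane, read -0.0063 and -0.015 in KO, against -0.41 and -0.61 in WT, a difference of 0.50 ± 0.10 that passed with the intensity trend (adjusted p = 0.0372) and not without (limma adjusted p = 0.117). Dnajb11, a BiP partner in the lumen, differed by 0.18 ± 0.08. Dnajb9, a J protein strongly induced in ER stress, lay on the other side at -0.20 ± 0.17, with overlapping groups. Hspa13, an HSP70 of microsomes, differed by 0.29 ± 0.08 on its brightest probe, but its 4 probes ran from -0.37 to 0.35. Dnajc10, an ER disulfide reductase, and Dnajc14, of the ER membrane, also had probes of both signs, from -0.21 to 0.38 and from -0.16 to 0.38. The ER median was 0.055 without WT replicate 1 and 0.15 without WT replicate 2.

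In the mitochondrial class all 9 members were measured, 8 were higher in KO and the median was 0.21. Hspe1, the HSP10 lid of the mitochondrial chaperonin, read 3.29 and 3.20 in KO, against 2.52 and 2.59 in WT. The difference of 0.69 ± 0.09, 1.61-fold, passed with the intensity trend (adjusted p = 0.00839) and not without it (limma adjusted p = 0.0875). Hspd1, the HSP60 barrel that Hspe1 closes and that shares the promoter elements printed above, read 4.70 and 4.49 in KO, against 4.43 and 4.39 in WT, a difference of 0.19 ± 0.11 (limma adjusted p = 0.367). Both genes were higher on both KO arrays, by amounts on 2 different probes that were not tested against each other.

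Dnajc28, a mitochondrial J protein, was higher by 0.64 ± 0.11 (limma adjusted p = 0.101, and 0.0471 with the intensity trend), with 3 probes from 0.46 to 0.77, but its direction turned to -0.31 with normexp on all spots. Dnajc15, of the inner membrane, differed by 0.21 ± 0.10 and Dnajc30 by -0.19 ± 0.08, with no overlap in either. Dnaja3, the partner of the mitochondrial HSP70, differed by 0.08 ± 0.09, and Hspa9, that HSP70 itself, by 0.0080 ± 0.10. The class median was 0.12 without KO replicate 1 and 0.13 without WT replicate 2.

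**Figure D3:**
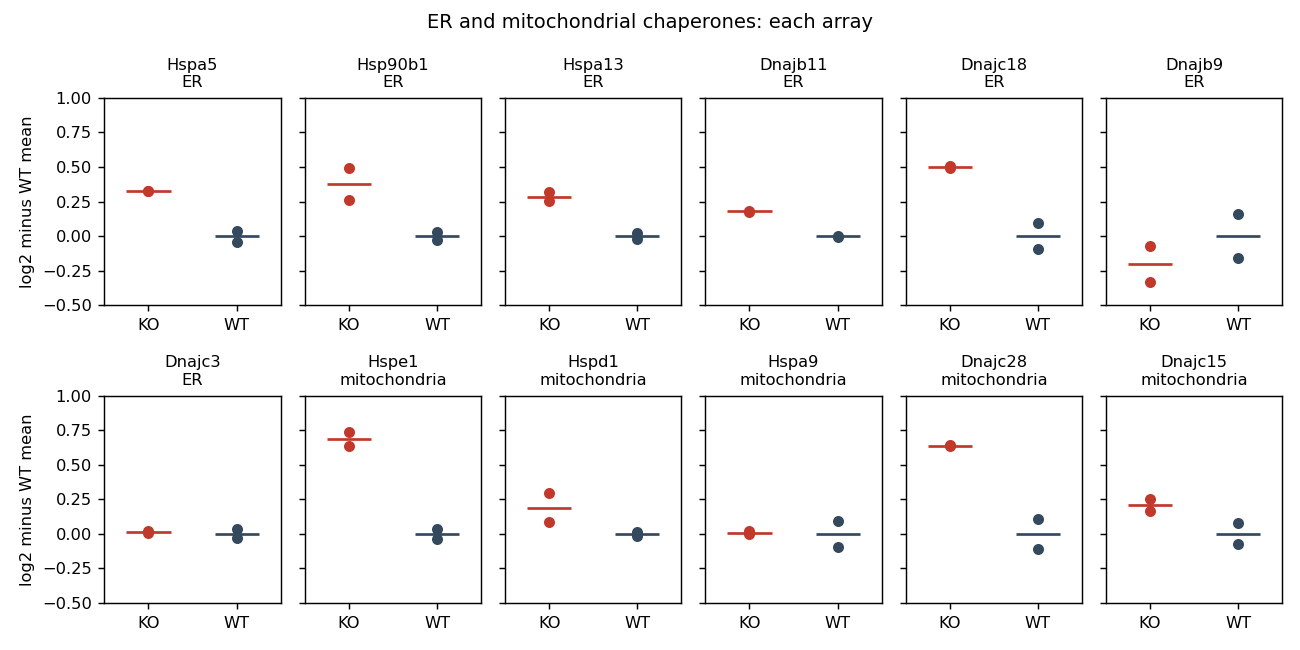
Log2 value of each array minus the WT mean of the same gene, for 7 ER and 5 mitochondrial members; points are arrays, bars are means of 2, KO left of WT. Hspe1, Dnajc28 and Dnajc18 show the widest separation, and Dnajc3 and Hspa9 none.

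The chaperonin CCT is a ring of related subunits that folds actin and tubulin, and 9 of the 10 names for it were measured. In KO 7 were higher, with a median of 0.13. For 7 members both KO arrays were above both WT arrays and for 1 below both, against 28% and 30.5% of all genes. Cct3 stood highest, at 1.71 and 1.65 in KO, against 1.25 and 1.19 in WT. Its difference of 0.46 ± 0.08 passed with the intensity trend (adjusted p = 0.0218) and not without it (limma adjusted p = 0.106), and its other probe gave 0.12. The other 8 lay between -0.05 and 0.23, including Cct6b at 0.23 ± 0.08, Cct6a at 0.23 ± 0.10 and Cct8 at 0.16 ± 0.08. Tcp1, the founding subunit, differed by -0.04 ± 0.08.

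The 8 cochaperones stayed within -0.08 to 0.19, 5 higher and 3 lower. Hspbap1, named for binding a small heat shock protein, differed by 0.19 ± 0.08, Bag1, a nucleotide exchange factor, by 0.15 ± 0.09, Stip1, which links HSP70 to HSP90, by 0.12 ± 0.11 and Ahsa1, which activates HSP90, by 0.08 ± 0.08. All 4 had limma adjusted p of 0.272 or more. Of the 7 small heat shock proteins other than Hspb1, 4 were measured, 2 higher and 2 lower. Hspb7, best known from heart muscle, was dim and its 2 probes gave 0.67 and -0.18. Hspb11, which is part of the transport machinery of cilia, differed by 0.24 ± 0.10, Hspb6 by -0.16 ± 0.09 and Hspb9 by -0.24 ± 0.18.

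Among the other J proteins 20 of 26 were measured, 14 were higher and the median was 0.12. Without WT replicate 2 the median was 0.071 with 11 of 20 higher, and with normexp fitted without control spots it was 0.041. Dnajc21, which takes part in ribosome assembly, read -0.11 and 0.09 in KO, against -0.75 and -0.65 in WT, a difference of 0.69 ± 0.11 (limma adjusted p = 0.0962, and 0.0204 with the intensity trend). Dnajb2, which directs HSP70 clients to degradation and is best known from neurons, was higher by 0.60 ± 0.10 (limma adjusted p = 0.0974, and 0.0465 with the trend), and it turned to -0.29 with normexp on all spots. Dnajb6, an inhibitor of protein aggregation, differed by 0.38 ± 0.11 on its brightest probe, and its 3 probes ran from -0.17 to 0.38. Dnajb8, best known from the testis, was dim and differed by 0.39 ± 0.12, or by -0.89 with normexp on all spots and -0.055 with normexp fitted without control spots.

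Dnajc9, a histone chaperone as well as a J protein, was the one member called lower with the intensity trend. It read 4.97 and 4.90 in KO, against 5.33 and 5.26 in WT, and differed by -0.36 ± 0.09 (limma adjusted p = 0.128, and 0.0298 with the intensity trend), but by 0.11 with normexp on all spots. All 8 proliferation markers measured were lower in KO, with a median of -0.69 and summed levels of 155 and 168 on the KO arrays, against 241 and 239 on the WT arrays, in multiples of the 75th percentile. Their part in the difference of Dnajc9 was not tested.

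**Figure D4:**
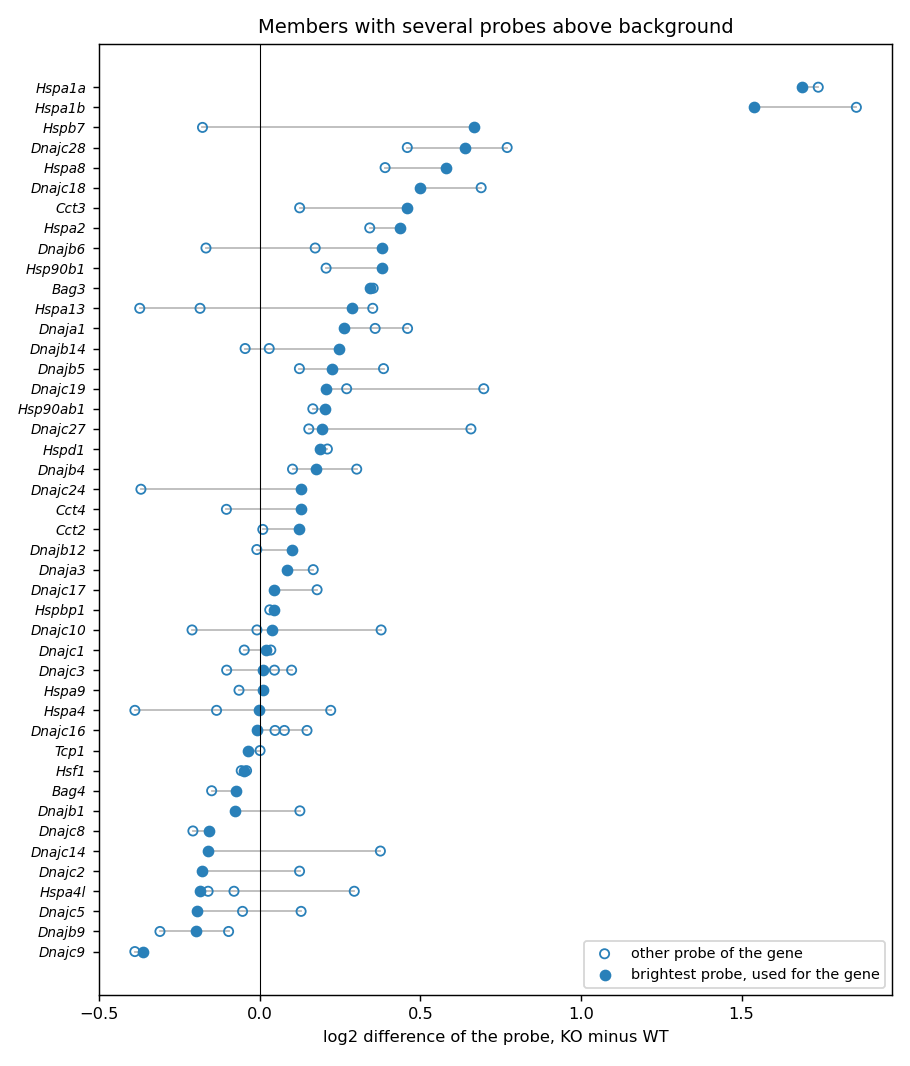
Log2 difference (KO minus WT) of every probe of the 44 members with more than 1 probe above background; filled points are the brightest probe, open points the others. The probes of Hspa1a and Hspa1b lie together above 1.5, and in 19 members the probes lie on both sides of 0.

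Where a gene had several probes, they did not always read alike. Of 44 members with several probes above background, 19 had probes of both signs. In 6 of these, Dnajb6, Dnajc10, Dnajc14, Hspa13, Hspa4 and Hspb7, the probes also lay more than 0.5 apart. The probes of Bag3 gave 0.34 and 0.35, those of Dnaja1 ran from 0.26 to 0.46 and those of Dnajc9 gave -0.36 and -0.39.

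Promoter elements were set beside the differences. The 4 measured members with a 3-unit heat shock element were all higher in KO, with a median of 0.43, and 11 of the 12 with only 2-unit elements were higher, with a median of 0.21. Of the 50 with a window and no element, 33 (66.0%) were higher, with a median of 0.09. Outside the members, 59 genes with a 3-unit element had a median of -0.11 and 39.0% were higher, 1456 with only 2-unit elements had a median of 0.0039 and 50.9% were higher, and 9186 with none had a median of 0.013 and 51.8% were higher. The 4 members are not independent readings: Hspe1 and Hspd1 share the same 18 bases. The probes of Dnajb6 ran from -0.17 to 0.38, and the difference of Hsph1 was carried by KO replicate 1. Hspa1a and Hspa1b are among the 12, with near-identical windows, and the probes of Hspa1b do not tell the paralogs apart. Differences between these sets were not tested.

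Other genes of the same pathways were counted from lists outside the member rule, which were chosen with earlier results of these data known. Of 20 other HSF1 targets and HSP90 partners, 14 were higher in KO and the median was 0.16. It was 0.074 with 12 of 20 higher without KO replicate 1, and 0.081 when each gene's probes were averaged. Fkbp4, an HSP90 partner of steroid receptors, differed by 0.28 ± 0.08, Stub1, the ubiquitin ligase of HSP70 clients, by -0.26 ± 0.09, and Fkbp5, a glucocorticoid-induced HSP90 partner, by -0.57 ± 0.19. None of the 20 passed with limma, with or without the intensity trend, which called 5.45% of all genes higher and 4.13% lower. At an unadjusted p under 0.05 there was 1 higher and 2 lower, against 11.8% and 12% of all genes.

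Of 20 other genes of the unfolded protein response of the ER, 17 were higher, with a median of 0.24. The number higher was 14 when each gene's probes were averaged (median 0.20) and 14 without WT replicate 2 (median 0.22). It was 20 with each array's median subtracted (median 0.32), where 59.2% of all genes were higher. With the intensity trend 5 passed as higher and 0 as lower, against 5.45% and 4.13% of all genes. Derl2, which takes part in the export of misfolded proteins from the ER, read 4.69 and 4.72 in KO, against 4.17 and 4.15 in WT (0.55 ± 0.08, adjusted p = 0.00907 with the trend). Manf, a secreted factor induced by ER stress, was higher by 0.56 ± 0.09 and Pdia6, a disulfide isomerase, by 0.50 ± 0.10. Of 12 other genes of mitochondrial protein quality control, 6 were higher and the median was -0.00041. Hscb, a J protein of iron-sulfur cluster assembly, was higher by 0.48 ± 0.08 (adjusted p = 0.0172 with the trend), while the protease Lonp1 differed by -0.26 ± 0.08 and the mitochondrial HSP90 Trap1 by 0.10 ± 0.08. Of the 6 prefoldins, which hand actin and tubulin to CCT, 4 were higher, with a median of 0.04 that turned to -0.015 with 2 of 6 higher without WT replicate 2. Pfdn6, Pfdn4 and Pfdn5 differed by 0.11 ± 0.08, -0.11 ± 0.08 and 0.10 ± 0.09.

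Immediate early genes, which are transcribed within minutes of a stimulus, were higher beside the inducible chaperones. Of 18 measured, 17 were higher, with a median of 0.65. With the intensity trend 11 passed as higher, against 5.45% of all genes. Jun read 2.58 and 2.65 in KO, against 1.47 and 1.29 in WT (1.23 ± 0.10), Junb differed by 0.71 ± 0.09 and Egr1 by 0.90 ± 0.12. The inducible class and the immediate early genes averaged 0.69 and 0.67 above the WT mean on KO replicate 1, and 0.44 and 0.53 on KO replicate 2. Hspa1a and Hspa1b raised the inducible mean, and the median difference of that class was 0.34. On WT replicates 1 and 2 the inducible class averaged -0.022 and 0.022, and the immediate early genes 0.14 and -0.14. The part of the immediate early genes in the chaperone differences was not tested.

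**Figure D5:**
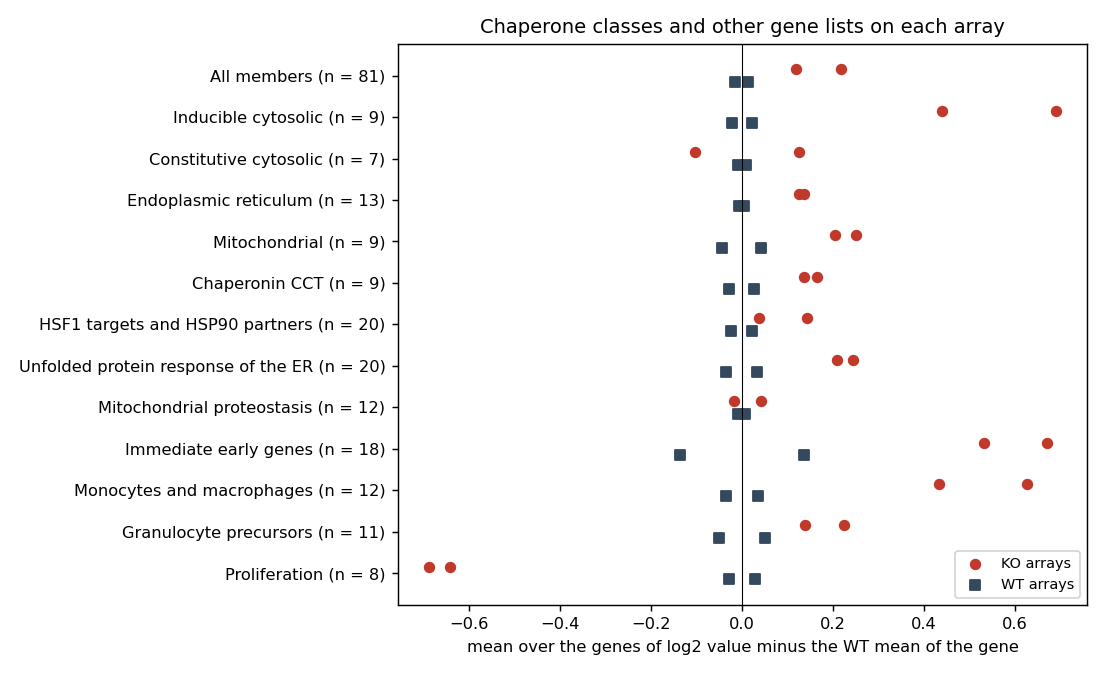
Mean over the genes of each class or list of the log2 value minus the WT mean of the gene, on each array (KO red circles drawn above WT squares). Inducible chaperones, immediate early genes and monocyte markers are high on both KO arrays, proliferation markers are low on both, and constitutive chaperones and mitochondrial proteostasis genes straddle 0.

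Markers of other cell types also differed between the sorts, and their part in the chaperone differences was not tested. Of markers for the labelled cell type, 11 precursor markers were measured, each well above background on all 4 arrays, with Mpo at 10.23 and 9.98 in KO, against 9.99 and 10.12 in WT; 8 of the 11 were higher, with a median of 0.13, which was 0.040 with 6 of 11 higher without WT replicate 1. Of 12 monocyte and macrophage markers 10 were higher, with a median of 0.63 and summed levels of 91.7 and 81.7 in KO, against 55.6 and 56.5 in WT. All 4 eosinophil markers measured were higher, with a median of 0.93 and summed levels of 19.3 and 17.9 in KO, against 12.8 and 10.97 in WT. All 6 erythroid markers measured were lower, with a median of -0.65 and summed levels of 110 and 81.1 in KO, against 151 and 146 in WT. Of 5 B cell markers 1 was higher (summed levels 8.32 and 6.79 in KO, against 5.58 and 5.94 in WT), of 5 T cell markers 1 (0.572 and 0.436 in KO, against 1.08 and 1.02 in WT) and of 5 dendritic cell markers 4 (49.5 and 36.1 in KO, against 27.2 and 31.3 in WT). With 1 array left out, the number higher ran from 1 to 2 for B cells, 0 to 3 for T cells and 3 to 5 for dendritic cells. The eosinophil receptor Il5ra and the B cell factor Ebf1 were among the markers not above background on 2 arrays.

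The direction of the members depended in part on how arrays were scaled. With the median of each array subtracted in place of the 75th percentile, 68 of 81 members (84.0%) were higher, as were 59.2% of all genes, and the constitutive class turned to a median of 0.08 with 4 of 7 higher. With that scaling the signs of Dnajb1, Hsf1, Hsf2, Hspa4 and Tcp1 flipped, those of the other named members did not, and the mitochondrial proteostasis list turned to a median of 0.08. Besides the members noted above, normexp on all spots turned the signs of Dnajb1, Dnajb9, Dnajc14, Dnajc30, Cct6a, Tcp1, Hspb7, Hspb11, Hspa4, Hspa4l, Hsf1, Stub1 and Lonp1.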

How the data were processed

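Gene expression was measured on 4 single-colour Agilent arrays, 2 of miR-223 KO and 2 of WT immature granulocytes. Per the file headers, the authors read the scans with Agilent Feature Extraction 10.5.1.1, and the intensity deposited for each spot is the processed signal, detrended and background-subtracted, with surrogate values at background and no scaling between arrays. A table of log2 values was also deposited by the authors, and its scale was read from the data: each column tracked log2 processed signal with 1 offset per array, and all column medians were 4.68. How that offset was made is not given in the sources used here. Probe coordinates are on mm9, per the file headers.

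From these, log2 processed signal minus the 75th percentile of non-control spots was computed for each array, and spots of a probe were averaged. A probe was kept where 2 or more of the 4 arrays had it well above background (25749 of 41174), and the brightest represented its gene, named with RefSeq's genes of GRCm38.p6. All 16978 genes were fitted with limma 3.58.1 in R 4.3.3 (lmFit, eBayes, prior degrees of freedom 1.83) and Benjamini-Hochberg adjustment at 0.05, without a replicate block. The fit was also run on simulated data of independent normal values, a setting that cannot speak to spread shared across genes.

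The members, classes and lists were chosen with earlier results of these data known. The text names every measured inducible member, up to 4 members of smallest unadjusted p in each other class, both heat shock factors, members whose probes disagreed in sign by over 0.5, and up to 3 genes of smallest p in each list; others were named for their role or to account for a class, with their values seen. Alternatives covered background correction, scaling, the authors' values, filters, probe rule, outlier spots, the intensity trend, a replicate block and each array left out. No genome or protein table was used.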

Additional observations from a re-analysis of the deposited data

How the results depend on the processing

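Under the 15 alternatives, 920 of 1018 values of the 68 named genes kept their direction and their side of the threshold, 42 passed it, and 56, of 24 genes, changed sign. The number of genes called was 1873 with normexp fitted without control spots, 4 with quantile normalization, 60 with median scaling, 61 on the authors' deposited values, 125 with the filter on all 4 arrays and 1627 with the intensity trend, and it was 0 in the other settings. Members called numbered 10, 0, 2, 2, 2 and 11 in these, all higher except Dnajc9 with the trend. The counts are out of 81 members and 16978 genes, or 78 and 15621 with the filter on all 4 arrays. With normexp fitted without control spots, 10 of 81 members thus stood beside 1873 of 16978 genes. The trend called 5.45% of all genes higher and 4.13% lower. The labels state no pairing by replicate number. Deviations of same-numbered arrays were nearly uncorrelated (0.0386 across genes), which cannot show whether the samples were paired. A limma fit with the replicate block called 0 genes and 0 members, its lowest adjusted p being 0.162.

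The median differences moved as follows, and the cause was not tested. Normexp on all spots put the median of all genes at -0.15, against -0.017, and gave 0.28 for all members, 0.61 for inducible, 0.22 for constitutive, 0.33 for ER and 0.35 for mitochondrial members. Median scaling and the authors' values both gave 0.21, 0.18 and 0.29 for all, ER and mitochondrial members. The ER median was 0.16 with normexp without control spots and 0.065 with the mean over probes. With 1 array left out, the medians ranged from 0.17 to 0.51 (inducible), -0.096 to 0.088 (constitutive), 0.055 to 0.15 (ER) and 0.12 to 0.20 (mitochondrial).

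Signs changed with normexp on all spots for Hspb1 (-1.01), Dnajb1 (0.36), Hspa14 (0.22), Dnajc28 (-0.31), Dnajc30 (0.14), Cct6a (-0.080), Hspb11 (-0.019), Hspb7 (-1.02), Dnajb2 (-0.29), Dnajc9 (0.11), Hsf1 (0.45), Dnajc14 (0.13), Hspa4 (0.36), Stub1 (0.14), Lonp1 (0.16), Hspa4l (0.083), Dnajb8 (-0.89), Dnajb9 (0.089) and Tcp1 (0.41). With normexp without control spots they changed for Hspb1 (-0.061), Hspb7 (-0.064), Dnajb8 (-0.055), Hsf1 (0.036), Hspa4 (0.069), Hspa9 (-0.0037) and Tcp1 (0.027). Quantile normalization turned Hsf2 (0.069), Dnajc3 (-0.00069) and Hspa9 (-0.014). Median scaling turned Dnajb1 (0.0035), Hsf1 (0.031), Hsf2 (0.059), Hspa4 (0.079) and Tcp1 (0.044), and the authors' values Dnajb1 (0.0024), Hsf1 (0.030), Hsf2 (0.058), Hspa4 (0.077) and Tcp1 (0.043). The mean over probes turned Dnajb1 (0.023), Dnajc14 (0.11) and Hspa9 (-0.029). With 1 array left out, some genes took both signs: Dnajb4 ranged from -0.044 to 0.39, Hsf1 from -0.30 to 0.20, Hsf2 from -0.47 to 0.42, Hspa4 from -0.096 to 0.088, Dnajc3 from -0.023 to 0.043, Hspa9 from -0.087 to 0.10, Mpo from -0.077 to 0.18 and Tcp1 from -0.081 to 0.0051. Hspa1a and Hspa1b were higher in KO under all 15 alternatives. Signal over background limits what can be read for Hspb7 and Hsf2, each well above background on 3 of 4 arrays.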
